A study of Mus musculus with 5 samples.

Results

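Effector CD4 T cells labelled Rap were compared with control effector Th1 cells, a comparison that used 2 of the 5 arrays of the series, with 1 array in each group. All probe sets that carried a single gene symbol were used, and 12851 of 18193 genes were measured above the floor in at least 1 of both arrays. Both groups were primary splenic CD4 T cells of BALB/c mice, and the label protocol gives them the same culture, 5 days of stimulation with IL-2 at 15 ng/ml and IL-12 at 10 ng/ml. They differed by the label alone, which does not say what Rap stands for, nor its dose or timing, and the labels give no age, number of animals or pooling. The other 3 arrays held naive CD4 T cells, effector cells labelled TOFA (an inhibitor of the acetyl-CoA carboxylases) and memory Th1 cells, and served here for the normalization and as levels beside the comparison. The study's title concerns Acc1, fatty acid synthesis and the memory potential of CD4 T cells.

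An activated CD4 T cell that receives IL-2 and IL-12 grows, divides and takes on the Th1 fate. In that fate the transcription factor T-bet drives interferon gamma production. Growth is fed by glycolysis and by new synthesis of fatty acids and sterols, whose enzyme genes are switched on by the SREBP transcription factors, while HIF factors switch on genes of the hypoxia response and glycolysis. The desaturase encoded by Scd1 puts the double bond into stearate and palmitate, and Me1 encodes the cytosolic malic enzyme, a source of the NADPH that lipid synthesis consumes. When activation ends, resting T cells express genes such as Klf2, Klf3 and Ccr7 that mark quiescence and homing to lymph nodes.

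A gene's value is the log2 difference of its quantile normalized signals, Rap minus control effector, on its brightest probe set. "Higher" and "lower" mean a difference of at least 2-fold. With a single array per group there is no replicate error, and no p-value can be given. Precision is limited by the number of arrays. What can be checked inside these arrays is whether several probe sets of a gene gave the same difference on the same RNA. Probe sequences were not used here, so whether probe sets of a gene overlap was not checked, and overlapping ones would not be separate readings. A gene is called supported where at least 2 of its probe sets were 2-fold apart in the same direction and no probe set above the floor lay on the other side of 0. Probe sets of a gene share the culture, the RNA and the array, so their agreement bears on the measurement and not on the condition. The floor was the 40th percentile of all signals, 43.4, and where 1 of both arrays was at the floor the fold is a bound, marked "at least".

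The labelled cell type was checked first. Cd4, the co-receptor of helper T cells, had signals of 628 in control, 525 in Rap and 536 in TOFA effector cells, beside 897 in naive and 483 in memory cells. Cd3e, a chain of the T cell receptor complex, read 1407 in control, 1786 in Rap and 1292 in TOFA effector cells, beside 2932 in naive and 2087 in memory cells. Of 9 measured T cell identity genes, 0 were 2-fold apart between Rap and control cells, beside 5.73% of all genes. Their median difference was -0.02. Tbx21, the gene of T-bet, read 2036 in control, 2967 in Rap and 2401 in TOFA effector cells, beside 121 in naive and 710.1 in memory cells, so the Rap array held the highest value of the 5 and lay 0.54 above control on the log2 scale, under 2-fold. Gzmb, the gene of the cytotoxic protease granzyme B, read 28439.8 in control, 26476 in Rap and 13979 in TOFA effector cells, beside 266 in naive and 223 in memory cells, and the Rap and control signals differed by -0.10. Both arrays thus carried the T cell markers, Tbx21 and Gzmb with differences under 2-fold. Markers of other spleen cells differed in level. Of 15 macrophage and myeloid markers on the array 4 were above the floor in either array, of 11 neutrophil markers 3, and of 5 erythroid markers 1. B cell markers had 12 of 13 above the floor, with a summed signal of 2445 in control and 3223 in Rap cells. Of the 12, 9 lay above 0 and 3 below. Ms4a1 read 197 in control and 431 in Rap cells, Cd22 91.1 and 175, Blk 50.3 and 90.9. The B cell antigen receptor gene Cd79a was the 1 marker at the floor in both, while its partner Cd79b read 97.0 and 143. Dendritic cell markers had 8 of 11 above the floor, with summed signals of 6175 and 6385, most of it from Batf3, a factor that T cells express too, and from H2-Ab1, while Itgax and Xcr1 were at the floor in both. CD8 T cell and NK cell markers had 8 of 11 above the floor, with summed signals of 3417 and 4637, Eomes among them, while Ncr1 was at the floor in both. The naive and memory arrays carried more of such markers. Macrophage and myeloid markers summed to 3478 in naive and 157486 in memory cells, beside 383 in control. B cell markers summed to 42058 in naive and 72462 in memory cells. How far RNA of other cells entered the naive and memory levels given below was not tested.

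Between the arrays, 737 genes or 5.73% of those compared were at least 2-fold apart. Of these, 234 were higher (1.82%) and 503 lower (3.91%) in Rap cells. The median over all genes was -0.00 and the middle 80% lay between -0.62 and 0.51, so most genes differed little. The lower side reached further, with 48 genes at least 4-fold lower and 9 at least 4-fold higher. The share past 2-fold varied with signal. The genes were put into 5 equal groups by the higher of both signals. Of those from 88.3 to 321, 17.4% were 2-fold apart, against 2.49% in the brightest group. In the dimmest group, from 43.4 to 88.3, the share was 0.467%. In that range the floor of 43.4 left almost no room for a 2-fold difference, so this low share was set by the floor. For 202 of the 737 genes 1 of both signals was under the floor. A floor at the 20th percentile gave 2686 genes past 2-fold (1173 higher and 1513 lower), and a floor at the 60th gave 286 (71 and 215).

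**Figure D1:**
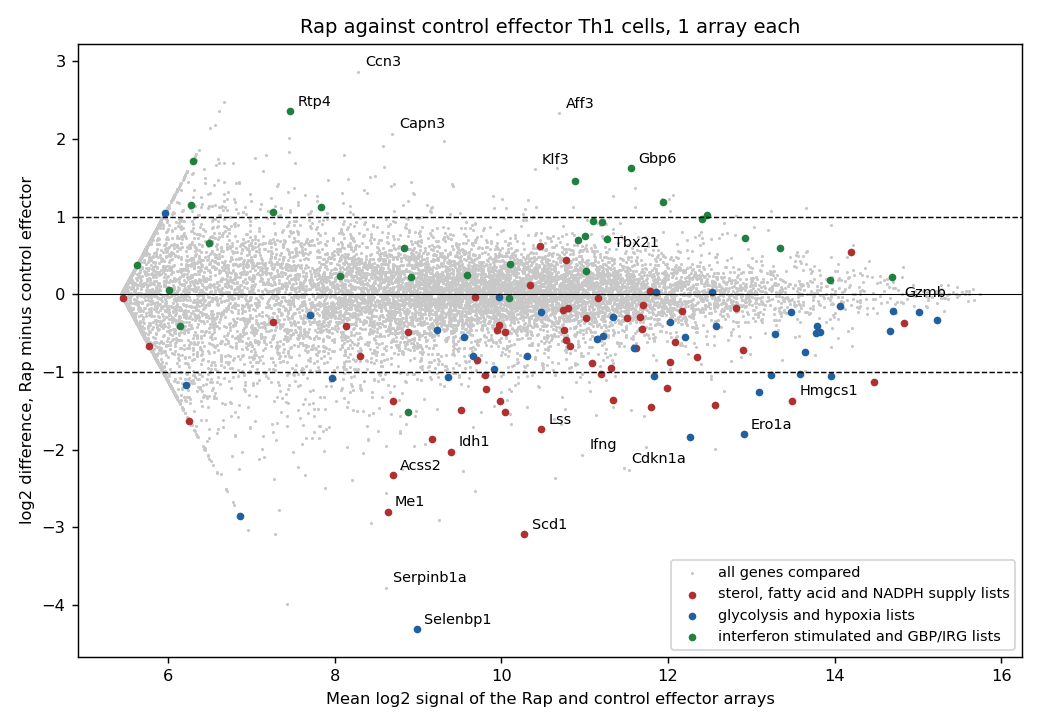
Each point is a gene, placed by its mean log2 signal on the Rap and control effector arrays and by its log2 difference, Rap minus control. Dashed lines mark 2-fold, coloured points are members of the lipid, glycolysis and hypoxia, and interferon lists, and the slanted edges at the left are genes at the floor in 1 array. Red and blue points lie mostly below 0 and green points mostly above it.

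The agreement of probe sets shows which differences were read on more than 1 probe set. Several probe sets above the floor were available for 6081 genes, and 118 of these were supported (1.94%), 24 higher (0.395%) and 94 lower (1.55%). In 13 of them the brightest probe set itself was under 2-fold. Where the brightest probe set was 2 to 3-fold apart, the next-brightest went the same way in 80.4% of 194 genes and was itself past 2-fold in 32.5%. At 4-fold or more these shares were 87.1% and 67.7% of 31 genes. The same shares were 66.5% and 2.94% for the 5812 genes whose brightest probe set was under 2-fold. The share with a second probe set past 2-fold was 45.2% of 186 lower genes and 27.7% of 83 higher genes. Signal level went along with this, since calls whose brighter array lay at or above the 60th percentile had a second probe set past 2-fold in 50.2% of 201 genes, and dimmer calls in 8.82% of 68. The difference between the directions was not tested apart from signal level. The SD of the differences of probe sets around their gene's mean was 0.379 on the log2 scale.

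**Figure D2:**
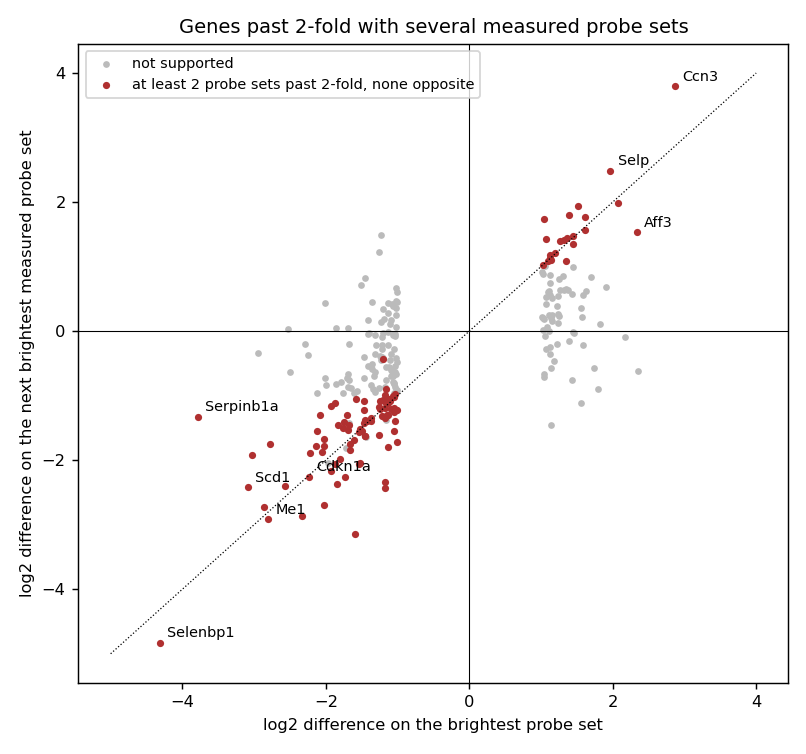
For genes past 2-fold with several measured probe sets, the log2 difference (Rap minus control) on the brightest probe set is set against that on the next-brightest, with the dotted line marking equal values. Red points are supported genes and grey points are not. The lower left holds 83 red points and the upper right 22, and grey points gather between 2-fold and 3-fold on the brightest probe set.

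Genes that feed fatty acid desaturation and NADPH supply stood among the supported genes furthest lower in Rap cells. Scd1 had signals of 3622 in control, 425 in Rap and 3976 in TOFA effector cells, beside 731 in naive and 2608 in memory cells. Only the Rap effector array was low among the effector arrays, below even the naive one, and the differences from control were -3.09 on the brightest and -2.42 on the other probe set. Me1 read 1051 in control, 151 in Rap and 519.6 in TOFA effector cells, beside 46.5 in naive and 107 in memory cells, with -2.80 and -2.91 on its probe sets, the latter with Rap cells under the floor. The TOFA array, compared with the same control array, lay at 0.13 for Scd1 and -1.02 for Me1. Idh1, the cytosolic isocitrate dehydrogenase that also makes NADPH, read 1361 in control, 333 in Rap and 1019 in TOFA effector cells, beside 225 in naive and 4747 in memory cells. Rap cells were 4.08-fold below control, with -1.78 on the other probe set. Acss2, which turns acetate into acetyl-CoA, read 930.1 in control, 185 in Rap and 440.2 in TOFA effector cells, beside 868 in naive and 547 in memory cells, so that the Rap array was the lowest of the 5. Its differences were -2.33 and -2.86 on the bright probe sets and -0.07 on a dim one near the floor.

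Of 11 measured genes of acetyl-CoA and NADPH supply, 4 were lower (Me1, Acss2, Idh1 and Me2) and 0 higher, all 11 lay below 0 and the median was -0.59, against 5.73% of all genes past 2-fold and a median of -0.00. The 4 lower genes were all supported, and Me1 among them is a marker fixed for this comparison. Me2, the mitochondrial malic enzyme, had 6137 in control and 2667 in Rap cells (-1.20), but averaged -0.95 over its 4 probe sets. TOFA cells lay at -1.31 for Me2 from the same control. The genes of the pentose phosphate branch differed less, with Pgd at -0.22, Tkt at -0.37 (up to 0.05 on another probe set) and Taldo1 at -0.62. Lower genes in this list were therefore those of malate, isocitrate and acetate use.

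Of 18 fatty acid synthesis genes, 5 were lower, 0 higher and 17 below 0, with a median of -0.37, beside 3.91% of all genes lower. The 5 included Scd1, a marker fixed for this comparison. The members past 2-fold were desaturases, the citrate carrier and Acacb. Fads2, the desaturase that opens the synthesis of long polyunsaturated fatty acids, read 1096 in control, 300.4 in Rap and 1187 in TOFA effector cells, beside 44.2 in naive and 25.2 in memory cells. Its 3 probe sets differed by -2.06 to -1.45, and its TOFA signal lay 0.12 from control. Scd2 had 33506 in control and 15290.5 in Rap cells, with 3 of 3 probe sets past 2-fold (-1.30 to -1.13), though it stood at -0.99 when only these 2 arrays were normalized together. Slc25a1, which carries citrate out of mitochondria, was 2.59-fold lower on its single probe set. Acacb, the carboxylase at the mitochondrial surface, was under the floor in Rap cells and at least 3.09-fold lower, but -0.81 as a mean of its probe sets. The chain-building enzymes differed less: Fasn, fatty acid synthase, had 3582 in control and 2921 in Rap cells (-0.29), Acaca, the cytosolic carboxylase, differed by -0.04 and the elongase gene Elovl6 by -0.17.

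Cholesterol synthesis was the list with the lowest median among those described here, -1.04. All 17 measured genes lay below 0, 9 were at least 2-fold lower, beside 3.91% of all genes, and 5 of these were supported. Hmgcs1, which makes the HMG-CoA that enters the pathway, read 18454 in control, 7138 in Rap and 11286 in TOFA effector cells, beside 2785 in naive and 2745 in memory cells. Its 5 probe sets differed from control by -1.53 to -1.37, a spread of less than the 0.379 SD between probe sets, and all were past 2-fold. In the middle of the pathway, Lss, which closes squalene epoxide into the sterol ring, read 2603 in control, 779.6 in Rap and 1649 in TOFA effector cells, beside 262 in naive and 295 in memory cells, and its 3 probe sets lay between -2.26 and -1.48. Cyp51 and Msmo1, which remove methyl groups from that ring, were 2.58-fold and 2.73-fold lower, each with at least 2 probe sets past 2-fold. Pmvk and Fdps of the early steps (-1.52 and -1.42) and Tm7sf2 and Dhcr7 of the late steps (-1.37 and -1.49) were lower on the single probe set above the floor. Fdps came to -0.71 as a mean with its other probe set, which was under the floor on both arrays. Ebp, the sterol isomerase, had the smallest difference of the list, -0.30. The TOFA array lay between Rap and control for each of Hmgcs1, Lss, Msmo1, Pmvk and Fdps, at -0.71, -0.66, -0.64, -0.85 and -0.34 from the shared control array.

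**Figure D3:**
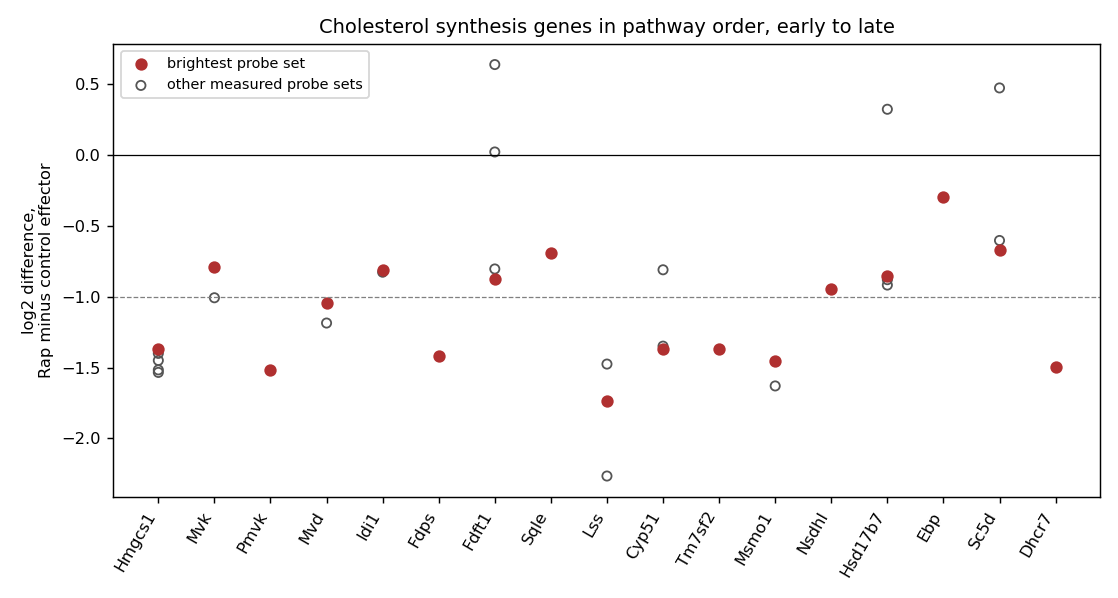
Log2 differences, Rap minus control effector, of the 17 measured cholesterol synthesis genes in pathway order, with the brightest probe set in red and other measured probe sets as open circles. The dashed line marks 2-fold lower. All red points lie below 0, from -0.30 (Ebp) to -1.74 (Lss), while dimmer probe sets of Fdft1, Hsd17b7 and Sc5d lie above it.

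The pathway's regulators had smaller differences. Of 11 genes of SREBP control and sterol uptake, 2 were lower, beside 3.91% of all genes, 0 higher and the median was -0.45. Lpin1, a phosphatidate phosphatase that also acts in the nucleus, read 1371 in control, 588 in Rap and 989 in TOFA effector cells, beside 439 in naive and 1044 in memory cells, and both of its probe sets were past 2-fold (-1.22 and -1.31). Insig1, itself an SREBP target that holds SREBP in the endoplasmic reticulum, was 2.03-fold lower. The genes of the factors themselves, Srebf1 and Srebf2, differed by -0.45 and -0.46, and Scap, which escorts SREBP to the Golgi, by 0.62. Vldlr, a lipoprotein receptor, had 6 probe sets, of which 5 were past 2-fold lower (-2.56 to -0.66 over all 6).

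The promoters of the sterol genes were read from RefSeq windows of build GRCm38.p6, from 250 bases before to 50 after each annotated start. The sterol regulatory element was searched as TCACNCCAC on both strands and found in 1 of 23 sterol genes with a window, Hmgcs1, beside 1.44% of all 27025 genes with a window (1.24% of 32851 windows). The E-box CACGTG was in 5 of 23 (21.7%, beside 8.09% of all genes and 7.15% of windows). The stretch around the Hmgcs1 match lies on the plus strand at chr13:119690194-119690242, upstream of the start, and is shown because Hmgcs1 was lower on all of its probe sets, with the matched letters in capitals.
Hmgcs1: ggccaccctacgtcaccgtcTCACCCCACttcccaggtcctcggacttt
A match is a description of the letters, and no match says only that this spelling was not in this window.

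Some glycolysis and hypoxia response genes were lower as well. Of 18 glycolysis genes, 4 were lower, 0 higher and 17 below 0 (median -0.48), beside 3.91% of all genes lower. Aldoc, an aldolase, read 9323 in control, 2601 in Rap and 4169.96 in TOFA effector cells, beside 98.9 in naive and 127 in memory cells. Both of its probe sets were lower, by -1.84 and -2.37, and the TOFA array was at -1.16 from control. Slc2a3, a glucose transporter, had 22831 in control and 10982 in Rap cells, and 3 of 4 probe sets were past 2-fold, but the brightest came to -0.96 with the values as deposited. Without probe sets that can match several transcripts, it was given by a dimmer one whose Rap signal was under the floor, at -3.24 or further. Pfkm and Pfkfb4, a phosphofructokinase and an enzyme that sets its activator, were lower at -1.07 and -1.08 and under 2-fold when a constant was added in place of the floor. The abundant enzymes differed less: Ldha at -0.23, Pkm at -0.23 and Tpi1 at -0.21. Gbe1, which builds the branches of glycogen and is in no list, read 3616 in control, 703 in Rap and 1519 in TOFA effector cells, beside 258 in naive and 208 in memory cells, 5.14-fold lower in Rap than in control cells on its single probe set.

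Of 23 hypoxia response genes, 8 were lower, 1 higher and 21 below 0 (median -0.58), beside 3.91% of all genes lower and 1.82% higher. Among the 8 was Selenbp1, a marker fixed for this comparison, in a list drawn up with earlier results known. Ero1a, an oxidase that forms disulfide bonds in the endoplasmic reticulum, read 14368 in control, 4118 in Rap and 10385 in TOFA effector cells, beside 1051 in naive and 1119 in memory cells. Its 3 probe sets lay between -2.18 and -1.80, so all were past 2-fold. Egln3, an oxygen-sensing hydroxylase of HIF, and Ndrg1, a stress-response gene, were 2.04-fold and 2.05-fold lower and supported. Adm, the gene of the vessel-dilating peptide adrenomedullin, was under the floor in Rap cells on both probe sets and at least 7.26-fold lower, or -1.07 with the floor at the 60th percentile. Ddit4, an inhibitor of mTORC1 signalling, had 13536 in control and 5646 in Rap cells (-1.26). Car9, a carbonic anhydrase, was at -1.16, but -0.73 with an added constant. Bhlhe40, a transcription factor that is also in the Th1 list, was 2.07-fold lower. Hif1a itself differed by -0.15, and Plod1, a collagen-modifying enzyme, was higher at 1.04.

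The list also held Selenbp1, whose product oxidises methanethiol and which had the largest difference of any gene measured on both arrays. It read 2257 in control, 114 in Rap and 536 in TOFA effector cells, beside 60.5 in naive and 279 in memory cells. The control effector array was above the 4 others. Its probe sets gave -4.31 and -4.83, and TOFA cells lay -2.08 from the same control.

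The hypoxia response element was searched as ACGTGC on both strands. It was in 18 of the 38 hypoxia and glycolysis genes with a window (47.4%), beside 6.68% of all genes and 5.91% of windows. The letters overlap those of the E-box, since CACGTGC holds both. Stretches upstream of the start of Ero1a (minus strand, chr14:45318611-45318656) and Ddit4 (minus strand, chr10:59951932-59951977) are shown, since both genes were lower in Rap cells. Capitals mark the match, which in Ero1a is read on the opposite strand.
Ero1a: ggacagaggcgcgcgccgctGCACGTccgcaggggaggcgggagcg
Ddit4: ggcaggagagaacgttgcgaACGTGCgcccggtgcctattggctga
Genes with the match included Hif1a, Pgk1 and Ldha, whose signals were under 2-fold apart, as well as Ero1a, Ddit4 and Car9.

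Some genes of the amino acid stress response were lower in Rap cells. Of 15 ATF4 and CHOP regulators, 3 were lower (Chac1, Vldlr and Ddit4) and 0 higher (median -0.54), beside 3.91% of all genes lower. Ddit4 was also counted among the lower hypoxia response genes. From the same control array, TOFA cells lay at 2.13 for Chac1, -0.23 for Vldlr and -0.31 for Ddit4, and Vldlr was the supported gene of the list. Of 19 serine, folate and amino acid enzymes 2 were lower and 0 higher (median -0.32), beside the same 3.91% of all genes lower. Gpt2, a mitochondrial alanine transaminase, read 302 in control, 82.2 in Rap and 1255 in TOFA effector cells, beside 20.5 in naive and 60.8 in memory cells. Rap cells were 3.67-fold lower than control with 2 of 4 probe sets past 2-fold, and TOFA cells were 2.06 above the same array on the log2 scale. In Rap cells Gpt2 came to -0.96 without probe sets that can match several transcripts, and to -1.13 as a mean of its probe sets. Cth, which makes cysteine, read 148 in control, 59.5 in Rap and 1726 in TOFA effector cells, beside 2.33 in naive and 6.84 in memory cells, with Rap cells at -1.32, or -0.90 with an added constant. Chac1, which degrades glutathione, was under the floor in Rap cells, at least 3.98-fold lower, but -0.20 with the floor at the 60th percentile. Asns, asparagine synthetase, had 1590.3 in control and 859 in Rap cells (-0.89). Eif4ebp1, a translation repressor that mTORC1 phosphorylates, had 5845 in control and 2989 in Rap cells (-0.97), and its next probe set was at -1.04.

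The growth and division machinery had small differences. None of 27 mTOR complex and regulator genes (median -0.02), 26 cytosolic ribosomal protein genes (0.01), 26 mitosis genes (-0.02) or 31 DNA replication genes (0.12) was 2-fold apart. The same held for 27 ribosome biogenesis and MYC genes (0.28), with Myc at 0.79, and for 32 genes of oxidative phosphorylation (-0.15), 22 of the TCA cycle (-0.24) and 20 of fatty acid oxidation (-0.25). Over all genes compared, 5.73% were past 2-fold, and 2.49% in the group with the brightest signals. At such shares, finding none in a list of this size says little. Of 18 genes of G1 cyclins and CDK inhibitors, 1 was lower, beside 3.91% of all genes. This was Cdkn1a, which encodes the cell cycle inhibitor p21. It read 6164 in control, 1308 in Rap and 4252 in TOFA effector cells, beside 62.4 in naive and 119.8 in memory cells. The Rap array thus lay below the other effector arrays and above the naive and memory ones. The 2 probe sets of Cdkn1a gave -2.24 and -2.26. Ccnd1 and Ccnd2, the cyclins of early G1, were at 0.75 and 0.49, with the other probe set of Ccnd1 on the other side of 0 at -0.48. Of 14 measured p53 target genes Cdkn1a alone was past 2-fold, beside 5.73% of all genes, with Mdm2 at -0.04.

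**Figure D4:**
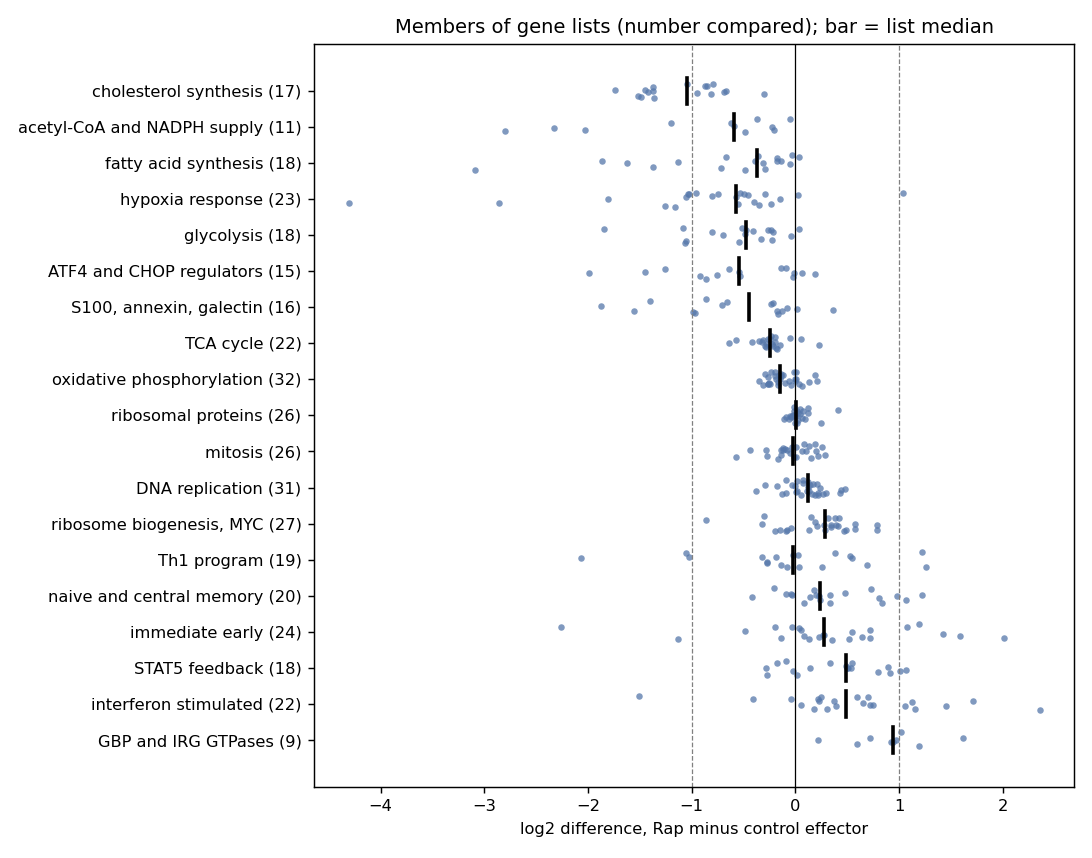
Each point is a measured member of a gene list (number compared in brackets) at its log2 difference, Rap minus control effector, and each black bar is the list's median. Dashed lines mark 2-fold. Medians run from -1.04 for cholesterol synthesis to 0.94 for the GBP and IRG GTPases, and ribosomal protein, mitosis and oxidative phosphorylation genes sit close to 0.

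The Th1 program was split. Of 19 measured genes, 3 were lower and 2 higher, with a median of -0.02, beside 3.91% of all genes lower and 1.82% higher. The 3 lower genes included Ifng, a marker fixed for this comparison. Ifng, the gene of interferon gamma, read 4108 in control, 980.1 in Rap and 2301 in TOFA effector cells, beside 6.47 in naive and 116 in memory cells, the naive value being under the floor. The 3 effector arrays were the highest, and Rap cells were 4.19-fold below control on a single probe set. Prdm1, the gene of Blimp-1, a transcription factor of terminal effector cells, was lower at -1.02 (-0.98 with an added constant). TOFA cells lay at -1.49 for Prdm1, further from control than Rap cells. Cxcr3, the chemokine receptor of Th1 cells, read 1679 in control, 4019 in Rap and 2317 in TOFA effector cells, beside 432 in naive and 4799 in memory cells, so that Rap cells were 2.39-fold above control and the highest of the effector arrays. Eomes, a T-box factor related to T-bet, had 837 in control and 1948 in Rap cells (1.22), but 0.39 on its other probe set. The IL-12 receptor genes Il12rb1 and Il12rb2 (0.26 and -0.02), Stat4, their signal transducer (-0.19), and Tnf (0.53) were under 2-fold. None of 12 cytotoxic granule genes was 2-fold apart (median 0.25), beside 5.73% of all genes.

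A few cytokine and costimulation genes differed, in either direction. Of 10 measured helper cytokine genes, 1 was higher and 2 lower. Of 18 inhibitory and costimulatory receptor genes, 1 was higher and 1 lower. Among 16 factors of other helper fates, 1 was lower, Nfil3, and 0 higher. Over all genes, 1.82% were higher and 3.91% lower. Il10, the regulatory cytokine gene, and Il24 were lower at -1.06 and -1.06, each under 2-fold with an added constant, and Lif was higher at 1.07, or 0.79 as a mean of its probe sets. TOFA cells lay at -0.47 for Il10, -1.13 for Il24 and 0.50 for Lif from the same control. Nfil3, a transcription factor induced by cytokines, read 5746 in control, 1942 in Rap and 2747 in TOFA effector cells, beside 40.2 in naive and 65.7 in memory cells, and was 2.96-fold lower on a single probe set. Tnfrsf9, the costimulatory receptor 4-1BB, had -1.81 and -1.71 on its bright probe sets and 0.62 on a dim one, or -0.97 as their mean. Btla, an inhibitory receptor of the CD28 family, was higher at 2535 in control and 5947 in Rap cells (1.23). Of 6 measured purine ectoenzymes, 1 was higher and 1 lower. Nt5e (CD73, which makes adenosine) was higher at 1.91 and Entpd1 (CD39, which acts before it) lower at -1.36. Yet their means over probe sets were 0.86 and -0.87.

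Genes of STAT5 and cytokine feedback lay mostly above 0, with 13 of 18 above 0 and a median of 0.49. Of the 18, 2 were higher and 0 lower, beside 1.82% of all genes higher. Socs2, a feedback inhibitor of cytokine receptors, read 11663 in control, 21667 in Rap and 11302 in TOFA effector cells, beside 352 in naive and 828 in memory cells. The Rap array was the highest of the 5, and its 6 probe sets ran from -0.08 to 1.08 with 2 past 2-fold. Il2ra, the alpha chain of the IL-2 receptor, had 4765 in control and 8999 in Rap cells and its probe sets gave 0.92 and 0.55. Stat5a and Stat5b differed by 0.02 and -0.18. The STAT5 element, searched as TTCNNNGAA on both strands, was in 2 of the 15 of these genes with a window (13.3%, beside 9.55% of all genes and 8.30% of windows).

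Interferon stimulated genes were higher in part. Of 22 measured members, 6 were higher, 1 lower and 19 above 0 (median 0.49), beside 1.82% of all genes higher. None of the members was supported by a second probe set. Xaf1, an interferon-induced regulator of cell death, read 1141 in control, 3124 in Rap and 6100.1 in TOFA effector cells, beside 2619 in naive and 3596 in memory cells, and its probe sets gave 1.45 and 0.99. Rtp4, a receptor chaperone induced by interferon, read 78.1 in control, 401 in Rap and 1641 in TOFA effector cells, beside 2561 in naive and 4385 in memory cells, with 1 of its 2 probe sets above the floor and a mean over both of 1.18. In both genes the order was control, Rap, then TOFA effector cells. Irf7, the interferon regulatory factor, and Oas2 and Oas3, sensors of double-stranded RNA, were at 1.13, 1.15 and 1.06, and Mx1 was at least 3.29-fold higher, under the floor in control cells. With an added constant Irf7 and Oas2 came to 0.94 and 0.74. From the same control array, TOFA cells lay at 1.94 for Irf7, 1.90 for Oas2 and 3.84 for Mx1, each further than Rap cells. In Rap cells, Ifit1, Ifit2 and Ifit3 of the antiviral IFIT family were at -0.41, 0.25 and 0.37. Dhx58, an RNA sensor, was lower at -1.51, while another of its probe sets, dim, gave 0.72 and the mean -0.26.

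The guanylate binding proteins and immunity-related GTPases, which attack vacuoles of intracellular microbes and respond to interferon gamma, all lay above 0. Of 9 measured, 3 were higher (Gbp6, Gbp8 and Iigp1), beside 1.82% of all genes, and the median was 0.94. Iigp1 came to 0.96 as a mean of its probe sets. TOFA cells lay at 1.40 for Iigp1 and 1.09 for Gbp8 from the same control. Gbp6 read 1719 in control, 5284 in Rap and 6397 in TOFA effector cells, beside 3114 in naive and 2644 in memory cells, with 1.62 and 1.57 on its probe sets. Gbp2 had 3901 in control and 7628 in Rap cells, at 0.97 and 1.05. Gbp3 was at 0.93 and Irgm2 at 0.94. Members of this family are close copies in sequence, so probe sets may read more than 1 of them. Ifng, by contrast, was lower in the same cells. Markers of B cells lay above 0 for 9 of 12 genes and dendritic cell markers for 5 of 8, and their part in these higher interferon genes was not tested.

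In the antiviral and GTPase genes with a window, the interferon stimulated response element, searched on both strands as GAAA repeated after any 2 bases, was found in 14 of 21 (66.7%), beside 3.99% of all genes and 3.44% of windows. The stretches from Gbp2 (plus strand, chr3:142620584-142620633) and Oas3 (minus strand, chr5:120777705-120777754), both upstream of the start, are shown as members of the GTPase and antiviral lists. Capitals mark the match, which is on the opposite strand in Gbp2.
Gbp2: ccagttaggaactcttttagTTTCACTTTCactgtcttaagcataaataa
Oas3: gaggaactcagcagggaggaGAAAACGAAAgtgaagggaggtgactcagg
Ifit1, which did not differ by 2-fold, also held the match, as did Igtp at 0.22.

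Several genes of resting and recirculating T cells were higher in Rap than in control effector cells. Of 20 naive and central memory genes, 2 were higher (Ccr7 and Igfbp4), 0 lower and 15 above 0, with a median of 0.23, beside 1.82% of all genes higher. Ccr7, the lymph node homing receptor, read 2712 in control, 6316 in Rap and 4261 in TOFA effector cells, beside 10056 in naive and 3604 in memory cells, so that the Rap array lay between naive and the other effector arrays. Igfbp4, which binds insulin-like growth factors, read 6672 in control, 13964 in Rap and 9807 in TOFA effector cells, beside 16373 in naive and 4895 in memory cells, and its 6 probe sets were all past 2-fold, from 1.07 to 1.81. Klf3, a transcriptional repressor of the list of FOXO1 and quiescence genes, read 773 in control, 2363 in Rap and 1108 in TOFA effector cells, beside 13669 in naive and 6100.1 in memory cells. It was 3.06-fold higher than control with 4 of its 6 measured probe sets past 2-fold. Of the 22 genes of that list 2 were higher, Klf3 and Irs2 (1.30), and the median was 0.12. Klf2, Il7r and S1pr1 were at 0.33, -0.04 and -0.42, so members lay on both sides of 0.

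Homing receptors went both ways, with 2 of 11 higher (Ccr7 and Cxcr3) and 2 lower, beside 1.82% of all genes higher and 3.91% lower. Cxcr4, the receptor for CXCL12, had 599 in control and 240.4 in Rap cells (-1.32). Cxcr6, a receptor of tissue-resident T cells, was lower at -1.18 and -1.08, and at -0.92 with the floor at the 60th percentile. Selp, the gene of P-selectin, a lectin that binds leukocyte ligands, read 322 in control, 1262 in Rap and 808 in TOFA effector cells, beside 95.3 in naive and 72.4 in memory cells. Its 3 probe sets gave 1.97 to 2.49, and it was higher in Rap cells than on any other array.

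Of 24 immediate early genes of T cell activation, 5 were higher and 2 lower, with a median of 0.28. Over all genes, 1.82% were higher and 3.91% lower. Ier3, an early gene of stress and growth signals, read 6494 in control, 1353 in Rap and 3499 in TOFA effector cells, beside 39.5 in naive and 311 in memory cells, and was 4.80-fold lower on its single probe set. Fosl2, an AP-1 subunit, was supported at -1.13 and -1.79. Egr1, a transcription factor induced by ERK signalling, read 86.8 in control, 351 in Rap and 966 in TOFA effector cells, beside 4383 in naive and 2683 in memory cells, so that Rap cells were 4.05-fold above a low control value, or 1.22 in log2 with the floor at the 60th percentile. Fos was at 1.42, Nr4a3 at 1.59 (0.53 as a mean of its probe sets) and Dusp2, a phosphatase of MAP kinases, at 1.08. Egr2 was under the floor in control cells and at least 2.29-fold higher, with both of its probe sets past 2-fold, or 0.92 with an added constant.

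**Figure D5:**
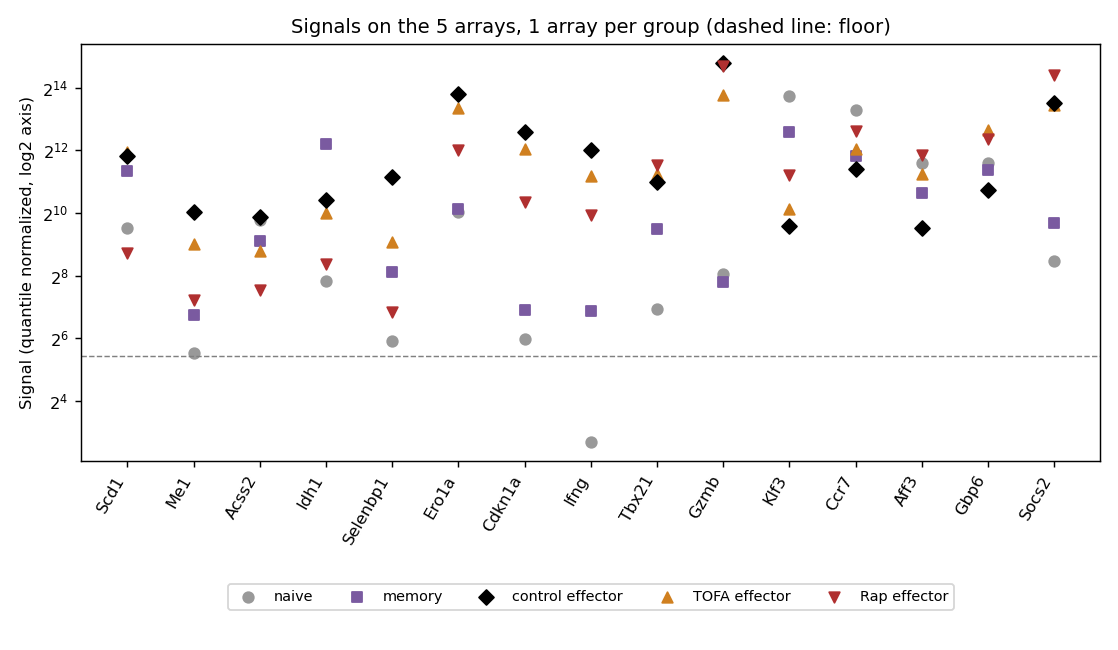
Quantile normalized signals (log2 axis) of 15 genes on the 5 arrays, 1 array per group, with the floor as a dashed line. Scd1, Me1, Acss2, Idh1, Selenbp1, Ero1a, Cdkn1a and Ifng were lower in Rap (red) than in control effector cells (black), Klf3, Ccr7, Aff3 and Gbp6 were higher, and Tbx21, Gzmb and Socs2 were under 2-fold apart.

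Some genes of cell shape, motility and protease control were lower. Of 16 S100, annexin and galectin genes, 3 were lower, 0 higher and 14 below 0 (median -0.45), beside 3.91% of all genes lower. Lgals3, the galectin-3 gene, had 3842 in control and 1307 in Rap cells (-1.56) and S100a4, a calcium-binding protein of effector and memory cells, -1.41. Anxa1 was at -1.88 but -0.94 as a mean with its other probe set. Anxa2 was at -0.99. From the same control, TOFA cells lay at -1.05 for Lgals3, -1.89 for S100a4, 0.13 for Anxa1 and -0.62 for Anxa2. Among 18 serpins and cathepsins, 4 were lower, all of them serpins, and 0 higher, beside the same 3.91% of all genes lower. The median of this list was -0.07, with 9 genes above and 9 below 0. The serpin gene Serpinb9 lay at 0.86 and 0.79 on its probe sets. Serpinb1a, an inhibitor of elastase-like proteases, read 1448 in control, 105 in Rap and 170.3 in TOFA effector cells, beside 264 in naive and 2058 in memory cells. Rap and TOFA effector cells were both low, at -3.78 and -3.09 from the shared control, and the other probe set gave -1.33 with Rap cells under the floor, for a mean of -2.55. Serpinb5 was lower on 4 of 4 probe sets (-2.16 to -1.32), or -1.34 with the floor at the 60th percentile, and Serpinf1 on 1 of 2 (-2.94 and -0.34, mean -1.64). TOFA cells lay at -3.06 for Serpinb5 and -2.03 for Serpinf1 from the shared control. Serpinb9b was under the floor in Rap cells and at least 2.04-fold lower, or -0.91 with the values as deposited. Hmox1, heme oxygenase, was lower at -1.81, but -0.48 with the floor at the 60th percentile, as its signals were 209.8 in control and 59.9 in Rap cells.

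Beyond the lists, the supported genes furthest higher were led by Ccn3. Ccn3, a secreted matrix-associated signalling protein, read 115 in control, 839.6 in Rap and 219 in TOFA effector cells, beside 1.17 in naive and 9.60 in memory cells, and its probe sets gave 2.86 and 3.79. Aff3, a nuclear regulator of transcription, read 735 in control, 3706 in Rap and 2414 in TOFA effector cells, beside 3096 in naive and 1576 in memory cells, with 2.33 and 1.53. Naive cells and Rap effector cells held the 2 highest Aff3 signals. Capn3, a calcium-dependent protease, was 4.19-fold higher, and Adcy9, an adenylate cyclase, 2.57-fold, with 3 of 4 probe sets past 2-fold. Tsc22d1, a leucine zipper protein, was 2.54-fold higher on 3 of 7 probe sets and 0.62 as a mean of all. Tns4, a tensin, was 2.72-fold higher, with 61.8 in control and 168 in Rap cells, and 0.16 with the floor at the 60th percentile. Adcy9 came to 0.96 there.

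Several of these higher genes are also expressed by antigen-presenting cells. Cd86, the ligand of CD28, read 212 in control, 606 in Rap and 436 in TOFA effector cells, beside 138 in naive and 2795 in memory cells, and H2-Aa, an MHC class II chain, 294 in control, 799.9 in Rap and 220.01 in TOFA effector cells, beside 5341 in naive and 23624 in memory cells, both highest in memory cells. H2-Aa was 2.72-fold higher in Rap cells with 3 of 3 measured probe sets past 2-fold, while H2-Ab1, its partner chain, was 2.39-fold lower, also with 3 of 3. H2-Ab1 lay at -1.46 in TOFA cells from the same control. Fgl2, a fibrinogen-like protein of T cells and macrophages, was 2.63-fold higher. The B cell marker Ms4a1, the gene of CD20, was 2.19-fold higher on both probe sets (197 in control and 431 in Rap cells), or 0.98 with an added constant, and 1 of 12 B cell markers was past 2-fold (median 0.36). Of 8 measured dendritic cell markers 1 was higher and 1 lower. Over all genes compared, 5.73% were past 2-fold. The part of other cells in Cd86, H2-Aa and Fgl2 was not tested, and in bulk RNA more cells of a type cannot be told apart from more RNA per cell.

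The remaining supported genes furthest lower were of mixed function. Endou, an RNA-cutting enzyme, read 421 in control, 61.5 in Rap and 67.1 in TOFA effector cells, beside 10.5 in naive and 69.2 in memory cells, and Pkp2, a desmosome protein, 951 in control, 161 in Rap and 397 in TOFA effector cells, beside 19.9 in naive and 34.8 in memory cells. Both were highest in control effector cells, with Rap cells 6.83-fold and 5.91-fold lower, and with 2 of 2 and 3 of 3 measured probe sets past 2-fold. Endou came to -1.77 with the values as deposited, and to between -1.38 and -1.77 in 6 of the 8 alternatives, and Pkp2 to -1.5 as a mean of its probe sets. Tet1, which oxidises methylated cytosine in DNA, read 659.9 in control, 159 in Rap and 291 in TOFA effector cells, beside 743 in naive and 109 in memory cells, and its 3 measured probe sets lay between -2.05 and -1.65, or -1.39 as a mean with the dim one at the floor. Control effector cells were near the naive signal of Tet1, and the 3 other arrays were lower. Ndrg4, a relative of Ndrg1, was 4.67-fold lower, and Rassf4, a Ras-association protein, 4.24-fold, and they came to -1.43 and -0.58 with the floor at the 60th percentile.

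Genes with a single probe set above the floor have no such internal check. Those furthest lower were Prss35, a protease-like gene (8.50-fold), H2-Q10, an MHC class I gene with close copies (7.48-fold), Pik3ap1, an adaptor of PI3 kinase (5.77-fold), the cytochrome P450 gene Cyp2s1 (5.23-fold), the biliverdin reductase gene Blvrb (5.22-fold), Gbe1, Dnm1, a dynamin (5.02-fold), and the nitric oxide synthase gene Nos3 (4.97-fold, or -0.56 in log2 with the floor at the 60th percentile). With the floor at the 60th percentile, Prss35 came to -1.60 and Blvrb to -1.23, and as means of their probe sets Pik3ap1 came to -1.26 and Dnm1 to -1.16. Pik3ap1 read 1982 in control, 343 in Rap and 661 in TOFA effector cells, beside 234 in naive and 5487 in memory cells. Dnm1 lay at -2.53 in TOFA cells from the same control, further than in Rap cells. Furthest higher, besides Rtp4 and Egr1, were the galactosyltransferase gene B4galt4 (3.47-fold), the cilium gene Cep290 (3.34-fold), Hemgn (3.24-fold), Hr (3.22-fold), Lbhd2 (3.22-fold) and Lad1 (3.17-fold). Of these, B4galt4, Cep290, Hr, Lbhd2 and Lad1 came to 0.85, 0.24, 0.22, 0.39 and 0.17 with the floor at the 60th percentile. Cep290 lay at 1.93 in TOFA cells from the same control.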

How the data were processed

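Total RNA of 5 samples was hybridised to Affymetrix mouse arrays. The deposited values are intensity, a linear signal per probe set. Per the submitters' processing notes the authors used GCOS and Affymetrix Expression Console, with versions and algorithm not given in the sources used here. On every array the mean after trimming 2% was 500.003. Median signals ran from 63.1 to 99.5 as deposited (68.7 in control, 66.9 in Rap effector).

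The 5 arrays were quantile normalized (Python 3.11.15, numpy 2.4.6, pandas 2.3.3), and signals under the 40th percentile (43.4) were raised to it. Of 45101 probe sets, 64 controls were set aside. GEO's 2016 platform annotation gave 34945 a single symbol, 932 several and 9160 none, and of the 34945, 34741 matched an Entrez identifier in RefSeq, with 0 symbols updated. A gene was read on its brightest probe set (mean log2 signal over the 5 arrays). The 5342 genes with neither array above the floor were left out.

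With 1 array per group no test was made, and a 2-fold difference was counted. Members, lists (55, with 959 of 1061 entries on the array) and the naming rule were chosen with earlier results of these data known, so no list is independent evidence. Named were 8 fixed genes (the markers included), the 12 furthest higher and lower supported genes, the 8 furthest higher and lower with a single measured probe set at or above the 60th percentile (150.5), both ranked among genes above the floor on both arrays, up to 6 members of each list, bounds included, and list members for their role. Predicted genes were skipped. The scripts' steps were tested on simulated data. The 8 alternatives were the values as deposited, the same centred on the median difference, normalization over both arrays alone, a floor at the 20th or at the 60th percentile, the mean of a gene's probe sets, leaving out _x_at and _s_at probe sets, and a constant added in place of the floor. Promoter windows were those of RefSeq.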

Additional observations from a re-analysis of the deposited data

How the results depend on the processing

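No paired analysis was possible because each group had 1 array. The floor moved the counts most. At the 20th percentile, 2686 of 16502 genes were 2-fold apart (1173 higher and 1513 lower), at the 60th 286 of 9205 (71 and 215), against 737 of 12851 (234 and 503). The share lower among genes past 2-fold was 68.2%, and 56.3% and 75.2% at these floors. The 6 other alternatives gave 524 to 734 genes. The mean of all probe sets shared 489 of its 524 genes with the 737, and an added constant 426 of 588. Of 55 lists, 43 kept the sign of their median in all alternatives. Reversed medians were, at the 20th percentile, those of helper cytokines (0.064), iron genes (0.039) and dendritic markers (-0.30), and, at the 60th, helper cytokines (0.17) and amino acid transporters (0.16), while neutrophil markers stood at -1.09 with 1 gene. The Th1 median crossed 0 within 0.02 of it. Fewer or more genes above the floor changed the members counted. Of 110 named genes past 2-fold, 66 stayed past it in every alternative that measured them, 44 fell under it in at least 1, and 0 reversed. Signals near the floor, 43.4, limit all values under about the 60th percentile, 150.5.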

Other observations

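Some smaller groups of genes also differed between Rap and control effector cells. Of 8 measured T cell chemokine genes, 3 were higher by 2-fold or more and 0 were lower, though all 3 had low signals. Over all genes, 1.82% were higher. Cxcl10, a ligand of Cxcr3, was under the floor in control cells and at least 2.83-fold higher, Cxcl9, another ligand, had 57.0 in control and 125 in Rap cells, and Ccl22, a ligand of Ccr4, had 102 in control and 214 in Rap cells. Cxcl9 and Ccl22 came to 0.74 and 0.82 with an added constant, and Ccl5, an abundant effector chemokine, differed by 0.00. TOFA cells lay at 2.63 for Cxcl10, 0.62 for Cxcl9 and -0.14 for Ccl22 from the same control. Of 6 sterol efflux genes 1 was higher, beside 1.82% of all genes. This was Nr1h3, the gene of the oxysterol receptor LXR alpha, at least 2.17-fold (0.97 with the values as deposited). Its targets Abca1 and Abcg1, which export cholesterol, differed by 0.70 and 0.21, with the other probe set of Abca1 at -0.22. TOFA cells lay at 1.19 for Nr1h3, 1.90 for Abca1 and 0.77 for Abcg1 from the same control. Cxcr2, a chemokine receptor of neutrophils, had 518 in control and 243 in Rap cells (-1.09, or -0.97 with an added constant), while 8 of 11 neutrophil markers, S100a8 and S100a9 among them, were at the floor on both arrays. Cxcr2 lay at -1.34 in TOFA cells from the same control.

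Class I antigen presentation lay slightly above 0, with 10 of 12 genes above 0, none past 2-fold and a median of 0.34. Among factors of other helper fates, Foxp3, of regulatory T cells, differed by 0.86 near the floor, Gata3, of Th2 cells, by 0.28, and Zeb2, a factor of terminal effector cells, by 0.94 on its brightest and 0.06 on its next probe set. None of 16 integrin and adhesion genes (median 0.23), 19 genes of proximal T cell receptor signalling (0.16), 18 tRNA synthetase genes (-0.21) or 30 mitochondrial ribosomal protein genes (-0.15) was 2-fold apart. Nor was any of 12 genes of the BCL2 family (-0.09) or 22 genes of the heat shock and unfolded protein response (0.01). Each of these counts, class I included, stands beside 5.73% of all genes past 2-fold. Dpf1, a chromatin factor outside the lists, was named after its values were seen, and was under the floor in Rap cells and at least 8.20-fold lower, with both of its probe sets past 2-fold.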
